A study of Brassica napus and Orychophragmus violaceus with 4 samples.

Results

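The genes analysed here are of the prenyl diphosphate synthase families that make geranylgeranyl diphosphate (GGPP) and farnesyl diphosphate (FPP), with a small subunit gene. They were followed in the petals of 4 plant materials, and what each copy makes was not tested. The set comprised all *B. rapa* genes of the deposited read sheet whose Arabidopsis match was one of 10 named Arabidopsis genes. Of the 37441 genes of the sheet, 14 met this rule. The 14 genes matched 8 of the 10 Arabidopsis genes and comprised 11 GGPP synthase copies, 1 copy of the small subunit gene *SSU* and 2 copies of the FPP synthase gene *FPS1*. The other 2 Arabidopsis genes, *FPS2* and AT1G49530, were not analysed here. The set was picked out because 1 copy had reads in M4 and in *O. violaceus* but none in H3, so the reads of M4 and H3 are described below without a test.

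In M4 a single *O. violaceus* chromosome, present as a pair, was added to the full *B. napus* set (a disomic addition line), and its petals show red over yellow. H3 is its yellow-flowered parent, *B. napus* cv. Huashuang 3. The *O. violaceus* plants were the purple-flowered wild type, called OvP, and OvW, a spontaneous mutant whose flowers are white. Petals were taken as the flowers of greenhouse plants were half-open, and 1 library was made per material, so no difference has a replicate check and tests of the reads compare these libraries, not the plants. The *B. napus* parent holds a pair of related subgenomes, and reads of all materials were counted on *B. rapa* genes, so reads of subgenome copies and of *O. violaceus* copies cannot be told apart within a gene.

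GGPP synthases join isopentenyl diphosphate to allylic diphosphates, and in plastids their product feeds carotenoids, the phytyl chain of chlorophyll, tocopherols, plastoquinone and gibberellins. In Arabidopsis AT4G36810, which the sheet calls *LSU*, encodes the main plastid enzyme, and *SSU* (AT4G38460) encodes a related protein that binds it as a small subunit. FPP synthases supply the precursor of sterols and sesquiterpenes, mainly outside plastids. Carotenoids give *B. napus* petals their yellow colour.

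The counted reads were 15507389 in M4 and 16447021 in H3, and 1850787 in OvP and 2040729 in OvW. A count of 0 therefore allows up to 0.193 CPM (reads scaled to the library total) in M4 and 0.182 CPM in H3. It allows 1.62 CPM in OvP and 1.47 CPM in OvW, taking 3 reads as the floor. Levels are given as the deposited RPKM, which is scaled to transcript length and mapped reads, and intervals are exact 95% intervals of counting error only. The paper reports a far smaller mapped share for *O. violaceus* than for M4 and H3. The size of an RPKM difference between the species therefore depends on this scale. The petal identity genes *AP3*, *PI* and *SEP3* had reads on all 8 copies in every library. Their summed RPKM was 5859 in M4 and 6682 in H3, and 7523 in OvP and 11619 in OvW. The median ratio of these copies was 0.791 in M4 over H3 and 0.530 in OvP over OvW. Anther and pollen markers had reads on 9 or 10 of 13 copies, with a summed RPKM of 12.75 in M4 and 19.5 in H3, and of 43.75 in OvP and 39.4 in OvW. Carpel markers summed to 8.20 RPKM in M4 and 20.1 in H3, and to 12.85 in OvP and 11.8 in OvW, with no read of *SHP2* in OvP or OvW. Green tissue markers summed to 264 RPKM in M4, against 383 in H3, and to 942 in OvP, against 2538 in OvW. Their part in the results below was not tested. In these bulk samples fewer cells of a type and less RNA per cell cannot be told apart.

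Of the 14 genes, 9 had at least 10 reads over the 4 libraries. The other 5 held at most 6 reads in any library. These were the *LSU* copy Bra017785, both *GGPS4* copies, the *GGPS3* copy and the *GGPS5* copy Bra032140. In Arabidopsis *GGPS4* (AT2G18640) and *GGPS5* (AT2G23800) encode isozymes of the endoplasmic reticulum. Bra017785 is a short gene model of 309 bp, and it had 6 reads in OvP and 3 in OvW and none in M4 or H3.

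**Figure D1:**
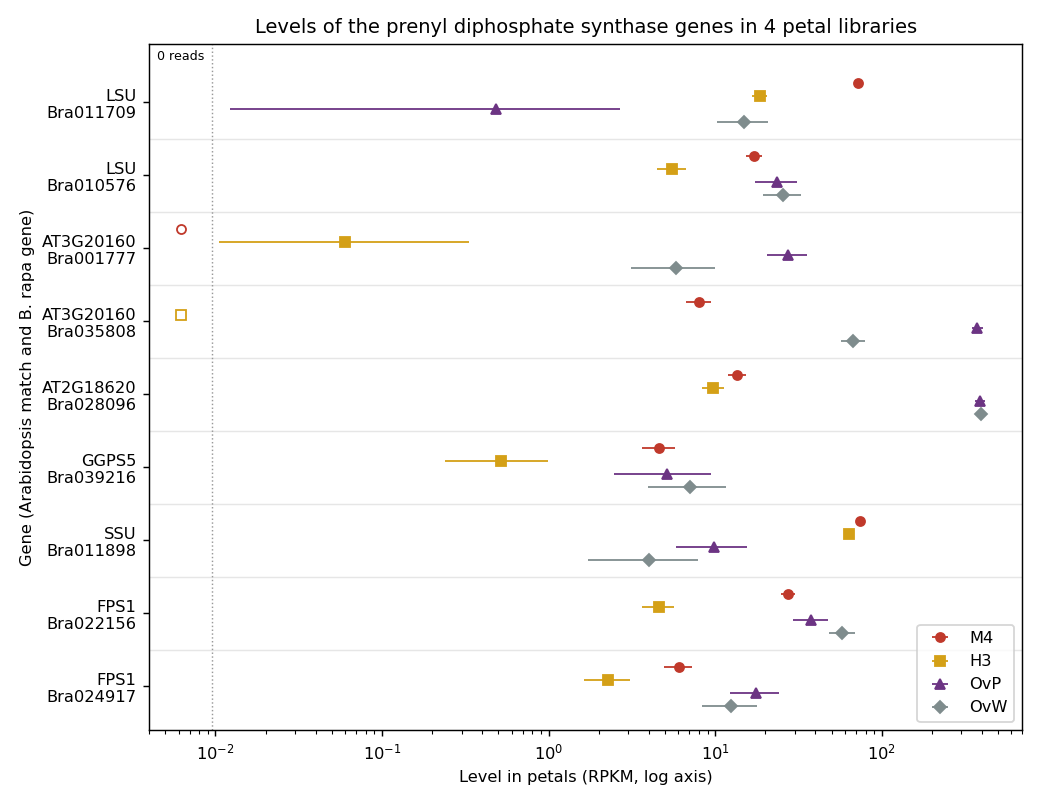
Levels (RPKM, log axis) of the 9 genes with at least 10 reads, with the 4 libraries as coloured symbols and exact 95% counting intervals as bars; open symbols left of the dotted line had 0 reads, and the lower bar of Bra001777 in H3 is drawn only to that line. Bra035808 and Bra028096 stood at 376 and 391 RPKM in OvP, whereas *LSU* (Bra011709) and *SSU* led in M4 and H3.

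The libraries of the 2 species differed in which genes made up the family. Summed over the 14 genes, the level was 223 RPKM in M4 and 105 in H3, and 899.6 in OvP and 596 in OvW. In M4 the *LSU* copies held 40.0% of this sum and *SSU* 33.2%. In H3 *SSU* held 60.4% and the *LSU* copies 22.8%. In OvP the AT3G20160 copies held 44.8% and the AT2G18620 copy 43.4%, with *LSU* at 3.96% and *SSU* at 1.09%. In OvW the AT2G18620 copy alone held 66.1%, the AT3G20160 copies 12.3%, *LSU* 7.71% and *SSU* 0.668%. The *FPS1* copies held 15.0% in M4 and 6.51% in H3, and 6.12% in OvP and 11.8% in OvW. *SSU* and *LSU* thus held the largest shares in both *B. napus* libraries, and AT2G18620 held a large share in both *O. violaceus* libraries. The share of AT3G20160 was large in OvP only, and in OvW it was close to that of *FPS1*. Reads of both species were counted on *B. rapa* genes, and the species were not compared by a test.

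**Figure D2:**
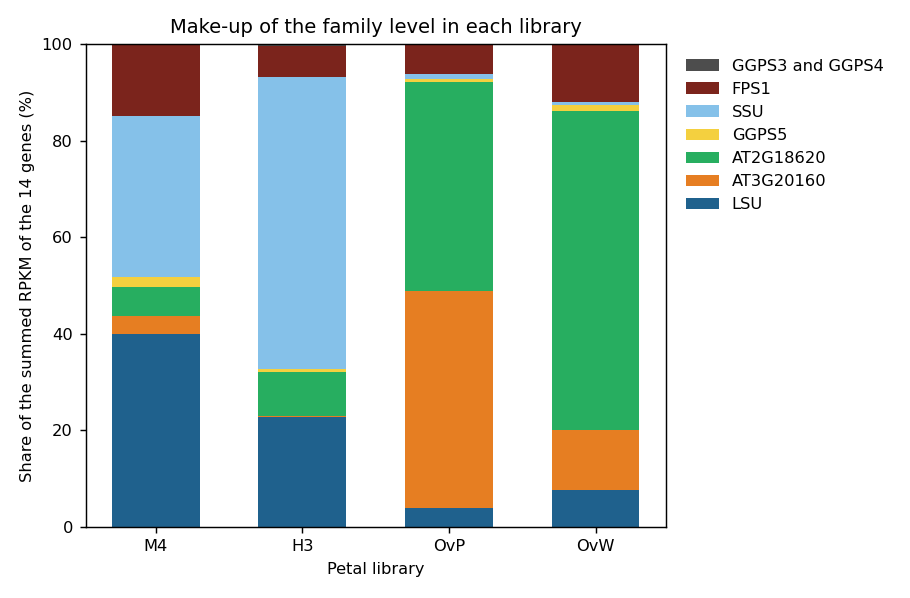
Share (%) of the summed RPKM of the 14 genes held by each Arabidopsis gene in the libraries M4, H3, OvP and OvW, as stacked bars. *LSU* and *SSU* together made up most of the bar in M4 and H3, and AT3G20160 and AT2G18620 most of it in OvP and OvW.

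Bra035808 on chromosome A05, matched to AT3G20160 of the GGPP synthase family, is the copy for which the set was chosen. It had 135 reads in M4 and 0 in H3, and 747 in OvP and 147 in OvW. Against the floor of 3 reads its level in M4 was 36.6-fold that in H3, and the lower end of the counting interval was 29.3. In RPKM, which is scaled to mapped reads, the values were 7.97 in M4, 376 in OvP and 67.3 in OvW. On that scale the copy was lower in M4 than in either *O. violaceus* library. The counted reads were 135 in M4 and 147 in OvW, and the comparison was not tested. Of 11967 genes with at least 10 reads in each of M4, OvP and OvW, 48 had no read in H3, and Bra035808 ranked 6 among these by its reads in M4. The gene listed before it on A05, Bra035807 (matched to AT3G20170), had 137 reads in M4 and 91 in H3. The gene listed after it, Bra035809 (AT1G78500), had 2 and 0.
Within *O. violaceus*, OvP exceeded OvW 5.28-fold for the same copy (interval 4.42 to 6.35). The binomial test, exact and on reads, returned p = 1.1e-102, or 2.3e-100 after Benjamini-Hochberg adjustment over all genes tested. The related copy Bra001777 on A03, also matched to AT3G20160, had no read in M4 and 1 in H3. In *O. violaceus* it had 55 reads in OvP and 13 in OvW. OvP exceeded OvW 4.4-fold (2.37 to 8.77, exact binomial p = 7.5e-08, adjusted 7.7e-07). Both copies of AT3G20160 were therefore higher in the purple library than in the white one. Counts on *B. rapa* genes cannot tell whether these reads came from 1 *O. violaceus* gene or more, so the copies are not independent observations. With the biological coefficient of variation assumed to be 0.4, the call of Bra001777 was lost (p = 0.0332, edgeR's exact test), while that of Bra035808 held. Bra035808 took 93.1% of the AT3G20160 reads in OvP (interval 91.2 to 94.8) and 91.9% in OvW (86.5 to 95.6), and the difference did not pass Fisher's exact test of the reads (p = 0.612, adjusted 0.734 over the 6 copy shares tested).

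AT2G18620 encodes a plastid GGPP synthase in Arabidopsis. Its single copy here, Bra028096 on chromosome A07, had 236 reads in M4 and 177 in H3, and 797 in OvP and 883 in OvW. The levels were 13.55 RPKM in M4 and 9.69 in H3, and 391 in OvP and 394 in OvW. The ratio was 1.08 in M4 over H3 (interval 0.888 to 1.32), and 1.41 when scaled by total reads. In OvP over OvW it was 0.938 (0.851 to 1.03) and was not called. This gene was thus among the highest of the family in *O. violaceus*, with nearly the same level in purple and white petals.

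Of the *LSU* copies, Bra011709 led in M4 and H3 and Bra010576 in OvP and OvW. Bra011709 on chromosome A01 had 1270 reads in M4 and 341 in H3. In OvP it had 1 read, against 33 in OvW. Its level was 72.2 RPKM in M4 and 18.5 in H3, and 0.480 in OvP and 14.8 in OvW. The counting interval of OvW (10.2 to 20.8) contains the RPKM of H3, but it covers counting error only, and no likeness between the species is read from it. M4 was 3.03-fold H3 (interval 2.68 to 3.42). OvP was 0.0315-fold OvW (0.000774 to 0.188) and was called lower, on 1 read (exact binomial p = 4.8e-09, adjusted 5.9e-08). This call held at an assumed coefficient of variation of 0.4.
Bra010576 on A08, the second well-read *LSU* copy, had 303 reads in M4 and 102 in H3, and 49 in OvP and 58 in OvW. M4 was 2.41-fold H3 (1.92 to 3.05), and OvP was 0.878-fold OvW (0.588 to 1.31), not called. Its RPKM was 17.1 in M4 and 5.52 in H3, and 23.6 in OvP and 25.4 in OvW. The reads that were low in OvP were therefore those counted on Bra011709 and not those on Bra010576. Whether the reads on these copies came from different *O. violaceus* genes cannot be told from the counts. Of the *LSU* reads, Bra011709 took 80.7% in M4 (interval 78.7 to 82.7) and 77.0% in H3 (72.8 to 80.8). It took 1.79% in OvP (0.0452 to 9.55) and 35.1% in OvW (25.5 to 45.6). Between OvP and OvW this share differed by Fisher's exact test of the reads (p = 3.9e-07, adjusted 2.4e-06). Summed over the 3 copies, *LSU* had 1573 reads in M4 and 443 in H3 (ratio 2.89, interval 2.60 to 3.21). It had 56 reads in OvP and 94 in OvW, a ratio of 0.619 (0.437 to 0.871).

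**Figure D3:**
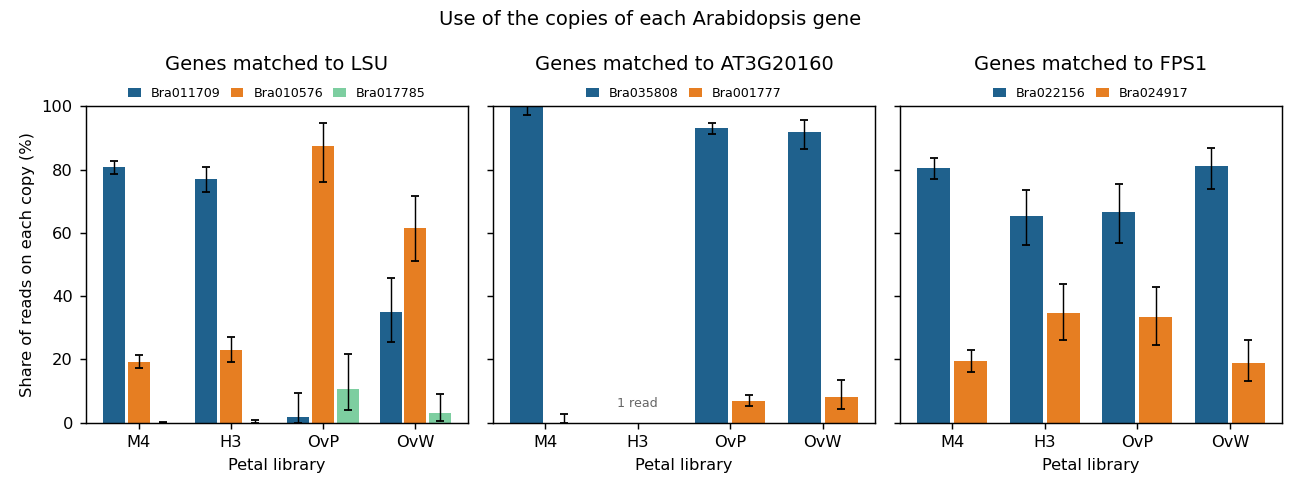
Share of reads (%) on each copy of *LSU*, AT3G20160 and *FPS1* in the 4 libraries, with exact 95% binomial intervals; AT3G20160 had 1 read in H3 and is not drawn there. Bra011709 held 80.7% of *LSU* reads in M4 and 77.0% in H3. Its shares in OvP and OvW were 1.79% and 35.1%.

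*SSU* had the most reads of the family when the 4 libraries were summed, a rank set mainly by the larger counted totals of M4 and H3. By library it led in reads in H3 alone. Bra011898 on chromosome A01 had 1156 reads in M4 and 1041 in H3, and 18 in OvP and 8 in OvW. The levels were 74.0 RPKM in M4 and 63.4 in H3, and 9.83 in OvP and 3.98 in OvW. The ratio of M4 over H3 was 0.902 (interval 0.829 to 0.982), and it lay above 1, at 1.18, when scaled by total reads, so no direction is given. In OvP over OvW it was 2.34 (0.967 to 6.21), with p = 0.0488 in the exact binomial test, and was not called. In M4, *LSU* summed to 1.21 times the RPKM of *SSU*. The same quotient was 0.378 in H3, 3.62 in OvP and 11.5 in OvW. In OvP and OvW it rests on the 18 and 8 reads of *SSU*. Of the *LSU* RPKM in OvP, 32.5% came from 6 reads on the short gene model Bra017785.

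Of the weakly read genes, the *GGPS5* copy Bra039216 on chromosome A09 had 76 reads in M4 and 9 in H3 (ratio 6.86, interval 3.43 to 15.6). It had 10 reads in OvP and 15 in OvW, a ratio of 0.693 (0.278 to 1.65), which was not called. Its level was 4.6 RPKM in M4 and 0.520 in H3, and 5.16 in OvP and 7.04 in OvW. The RPKM intervals of M4, OvP and OvW overlapped, and no likeness between the species is read from that.

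*FPS1* encodes a farnesyl diphosphate synthase. Bra022156 on chromosome A02 had 453 reads in M4 and 79 in H3, and 72 in OvP and 124 in OvW. M4 was 4.66-fold H3 (3.66 to 6.0), at 27.3 RPKM in M4 and 4.57 in H3. OvP was 0.603-fold OvW (0.445 to 0.813), at 37.6 RPKM in OvP and 58.05 in OvW, with p = 0.00058 in the exact binomial test but short of 2-fold, and so was not called. Bra024917 on A06 had 109 reads in M4 and 42 in H3 (ratio 2.11, interval 1.46 to 3.09), and 36 in OvP and 29 in OvW, a ratio of 1.29 (0.769 to 2.18), not called. Bra022156 took 80.6% of the *FPS1* reads in M4 and 65.3% in H3, and 66.7% in OvP and 81.0% in OvW. The share in OvP was lower than that in OvW by Fisher's exact test of the reads (p = 0.00918, adjusted 0.0184).

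Counted over the family, 6 of the 8 genes with at least 10 reads in M4 and H3 together had a ratio of 2 or more, and 0 had a ratio of 0.5 or less. Over all 25546 genes tested, 24.7% had a ratio of 2 or more and 18.8% a ratio of 0.5 or less, 43.5% in all. Because the set was chosen on this contrast, nothing is read from that count. The median ratio of the 8 genes was 2.72, with Bra035808 ranked highest, beside 1.04 over all genes. The 6 genes were the *LSU* copies Bra011709 and Bra010576, Bra035808, the *GGPS5* copy Bra039216 and both *FPS1* copies. Between OvP and OvW, 2 of 9 genes were called higher and 1 lower, at a binomial p of 0.01 or less and at least 2-fold. The 2 called higher were the AT3G20160 copies, which are not independent observations. Over all 19141 genes tested, 9.44% were called higher and 9.93% lower, 19.4% in all. The median ratio of the 9 genes was 0.938, beside 1.0 over all genes.

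**Figure D4:**
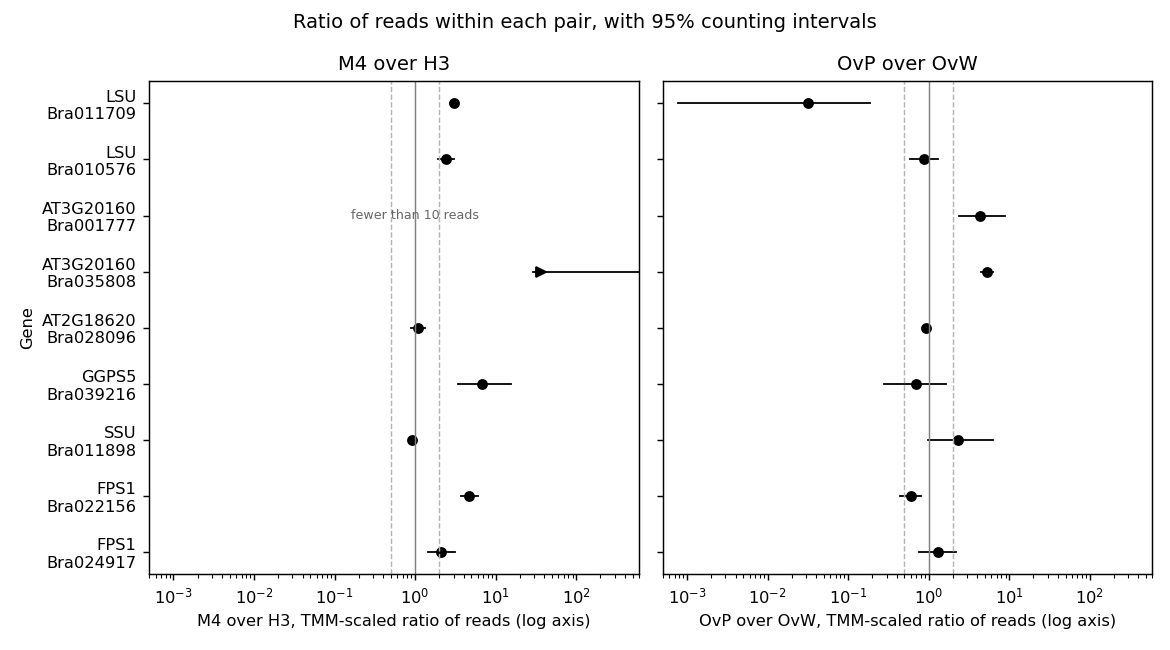
TMM-scaled ratios of reads (log axis) of M4 over H3, left, and OvP over OvW, right, for the 9 genes with at least 10 reads, with exact 95% counting intervals as lines and dashed lines at 2-fold and 0.5-fold. The ratio of Bra035808 in M4 over H3 was taken against the floor of 3 reads and is drawn as an arrowhead at 36.6. Bra011709 lay at 3.03 in M4 over H3 and at 0.0315 in OvP over OvW.

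No list of other pathway genes was tested as a set. Over all genes tested in M4 over H3, 24.7% had a ratio of 2 or more and 18.8% a ratio of 0.5 or less. In OvP over OvW, 9.44% of all genes tested were called higher and 9.93% lower. The list counts below are to be read beside these shares. The supply of precursors comes from the plastid MEP pathway and the cytosolic mevalonate pathway. Of 12 MEP pathway copies with at least 10 reads over M4 and H3, 6 had a ratio of 2 or more and 1 a ratio of 0.5 or less, with a median of 1.91. The highest were *MCT* (Bra026591) at 5.96 and *MDS* (Bra027672) at 3.49, and the lowest were *HDR* (Bra011522) at 0.486 and *DXS* (Bra033495) at 0.524. In *O. violaceus* 0 of 12 were called higher and 2 lower, with a median of 1.14. *DXR* (Bra010123), of the first committed step, had 1579 reads in OvP and 3973 in OvW, at 0.413-fold, while its copy Bra035881 had 166 and 111, at 1.55-fold, and was not called. The *HDR* copy Bra011522, of the last step, had 137 reads in OvP and 2929 in OvW, at 0.0486-fold. The other *HDR* copy, Bra034620, had 3801 and 3543, at 1.11-fold, and was not called. The low value is thus that of the reads counted on 1 *B. rapa* copy. The highest 2 were *CMK* (Bra012040) at 1.85 and *MDS* (Bra027672) at 1.62, not called.
Of 13 mevalonate pathway copies, 6 had a ratio of 2 or more in M4 over H3 and 4 a ratio of 0.5 or less, with a median of 1.77. The *AACT2* copy Bra036182, of the first step, had a ratio of 4.62, and the mevalonate kinase gene *MVK* (Bra036630) had a ratio of 4.15 on 92 reads in M4 and 18 in H3. Another *AACT2* copy, Bra020710, had 11 reads in M4 and none in H3. Against the floor of 3 reads that is 2.98-fold, and the lower end of the counting interval was 2.04. The lowest were *AACT1* (Bra017469) at 0.294 and *HMGR1* (Bra015739), of the rate-limiting step, at 0.308. In OvP over OvW 0 of 13 were called in either direction, with a median of 0.966. The extremes there were *MVK* (Bra020589) at 1.98, *AACT2* (Bra037501) at 1.43, *AACT2* (Bra036182) at 0.462 on 4 and 9 reads, and *MVD2* (Bra014828) at 0.664.
The 4 copies of isopentenyl diphosphate isomerase, which balances the 2 building blocks, had ratios in M4 over H3 of 2.96 for *IDI2* Bra001063, 1.44 for *IDI1* Bra006354, 0.945 for *IDI2* Bra021411 and 0.337 for *IDI2* Bra040599. In OvP over OvW the ratios of these 4 copies lay between 0.991 for Bra001063 and 1.29 for Bra021411, and 0 were called.

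Among other prenyl diphosphate synthases, 0 of 4 copies had a ratio of 2 or more in M4 over H3 and 2 had a ratio of 0.5 or less. These were the solanesyl diphosphate synthase genes *SPS1* (Bra035042) at 0.279 and *SPS2* (Bra026006) at 0.387. The 2 copies matched to the polyprenyl diphosphate synthase gene AT2G34630 had ratios of 0.673 (Bra022982) and 0.517 (Bra005405). In OvP over OvW 0 of 4 were called, with ratios between 0.883 for Bra022982 and 1.19 for *SPS2*. The *SPS* ratios of M4 over H3 thus ran opposite to those of *LSU* and *FPS1* above, as a description of these libraries.

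Genes whose enzymes use GGPP, or a prenyl chain derived from it, had ratios in both directions. Of 11 copies, 3 had a ratio of 2 or more and 3 a ratio of 0.5 or less in M4 over H3, with a median of 1.36. The phytoene synthase gene *PSY* (Bra008569), of the first step of carotenoid synthesis, had 4971 reads in M4 and 966 in H3 (ratio 4.18, interval 3.90 to 4.48). The most-read *PSY* copy, Bra006391, had 18997 and 13540 reads, a ratio of 1.14 (1.12 to 1.17), and Bra023603 had a ratio of 1.57. *HST* (Bra001429), which attaches the solanesyl chain made by SPS enzymes in plastoquinone synthesis, had a ratio of 3.41. The lowest were 2 copies of *CPS*, of the first step of gibberellin synthesis, with 2 reads in M4 and 33 in H3 on Bra000864 (0.0493, interval 0.00573 to 0.193) and a ratio of 0.229 on Bra036239.
In *O. violaceus* 2 of 11 copies were called higher and 1 lower, with a median of 1.21. *PSY* Bra006391 had 77 reads in OvP and 20 in OvW, 4.0-fold higher (2.42 to 6.91), and *PSY* Bra008569 had 78 and 21, 3.86-fold higher (2.36 to 6.58). These reads may come from 1 *O. violaceus* gene or more, so the 2 *PSY* calls are not independent observations. The copy called lower was *GGB* (Bra005031), of a protein prenylation enzyme, with 2 and 22 reads (0.0945, interval 0.0108 to 0.384). *CHLP* (Bra015908), of phytyl chain reduction, had a ratio of 0.736 and was not called.
Of 7 copies whose enzymes use FPP, 3 had a ratio of 2 or more and 1 a ratio of 0.5 or less in M4 over H3. The squalene synthase copy *SQS1* Bra034641 had a ratio of 3.17, with 2.63 on Bra011548 and 0.805 on Bra017667, and *SQS2* Bra011549 had 0.688. The sesquiterpene synthase gene *TPS21* had 286 reads in M4 and 2830 in H3 on Bra009717, a ratio of 0.0821, but 2.73 on Bra040582. In OvP over OvW 1 of 4 was called higher, *SQS1* Bra011548, with 111 and 53 reads (2.18, interval 1.56 to 3.08). The other 3 lay between 0.795 for *ERA1* (Bra025593), of another protein prenylation enzyme, and 1.56 for *SQS1* (Bra034641), with *SQS1* (Bra017667) at 0.877.

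**Figure D5:**
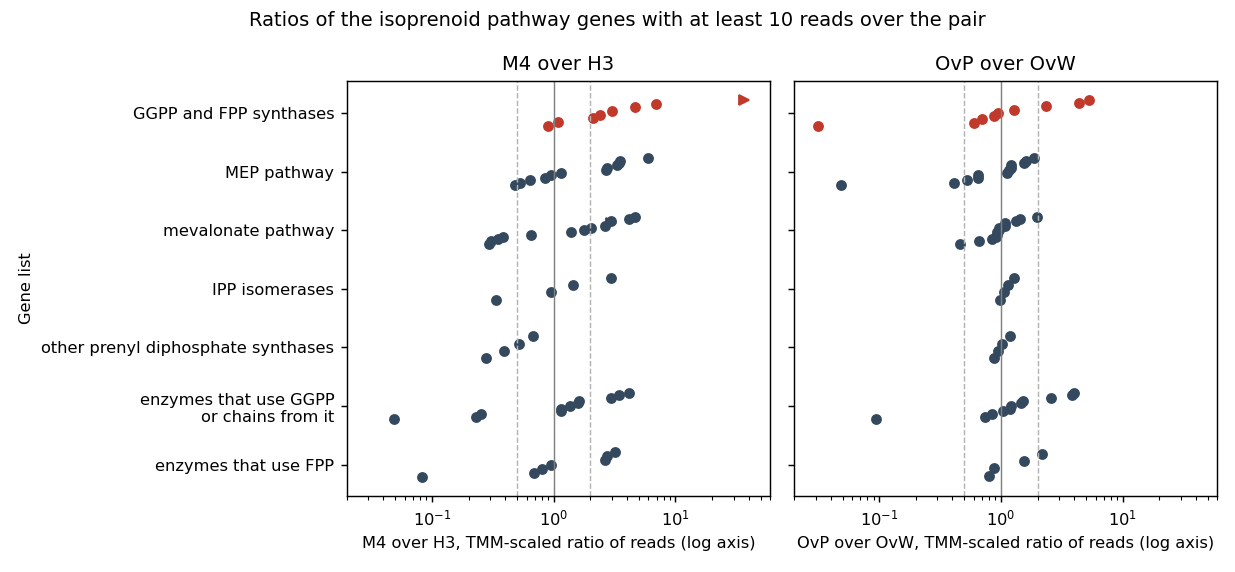
TMM-scaled ratios of reads (log axis) of M4 over H3, left, and OvP over OvW, right, with 1 point per copy with at least 10 reads over the pair, for the GGPP and FPP synthases (red) and 6 lists of other isoprenoid genes; arrowheads are lower bounds and dashed lines mark 2-fold and 0.5-fold. In M4 over H3 the median was 1.91 for the MEP pathway and 0.452 for the other prenyl diphosphate synthases.

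The genes whose levels ran most like those of Bra035808 were sought by the Euclidean distance of log2(CPM + 0.5) over the 4 libraries, as a description with no test. The nearest were Bra007103, matched to AT2G39130, at a distance of 0.825, and *HSP17.6II* (Bra023360), a small heat shock protein gene, at 1.24. They were followed by *TFCA* (Bra022798), a tubulin folding cofactor gene, at 1.44, the acyl carrier protein gene *ACP1* (Bra040638) at 1.58, and Bra020198, matched to AT5G22580, at 1.85. Bra007103 had 106 reads in M4 and 0 in H3, and 1234 in OvP and 172 in OvW. Nearest to *SSU* (Bra011898) were Bra005253, matched to AT2G36680, at 0.378, the cystatin gene *CYSB* (Bra038725) at 0.50, *PXN* (Bra004997), of a peroxisomal carrier, at 0.563, Bra026379, matched to AT4G27100, at 0.609, and *EMB1691* (Bra037896) at 0.658.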

How the data were processed

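A directional poly(A) library was sequenced from petals of each material. The authors used TopHat with up to 2 mismatches to place read pairs on the genome of *B. rapa*. The deposited counts are whole-number reads per *B. rapa* gene. The deposited RPKM values are reads scaled to transcript length and mapped reads, and the authors' methods name Cufflinks and Cuffdiff for them. Versions of these tools and of the genome were not given in the labels or methods. Reads of *O. violaceus* that differ from *B. rapa* by more mismatches are not counted, and its libraries hold several-fold fewer counted reads. The paper gives similar numbers of clean reads for all materials, with a far smaller mapped share in *O. violaceus*. The column of M4 in the read sheet carries a code, was assigned by its being the remaining name, and was checked against the RPKM sheet. The RPKM per read in M4 divided by that in H3 had a median of 1.05 over 14978 genes, with 95% of genes between 1.04 and 1.06.

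Counts were scaled by TMM (edgeR 4.0.16, R 4.3.3), and genes with at least 10 reads over a pair were kept. OvP and OvW were compared by edgeR's exact binomial test of the reads with Benjamini-Hochberg adjustment over all genes kept, and called at p of at most 0.01 and a ratio of at least 2 or at most 0.5. M4 and H3 received no test. Intervals are 95% and exact (Clopper-Pearson for ratios and shares, Poisson for levels), and cover counting error only. A ratio against 0 reads was taken against 3 reads. Copy shares were compared by Fisher's exact test (SciPy 1.17.1). The scripts were tested on simulated data. Alternatives were scaling by total reads, by DESeq2 1.42.0 size factors or by the deposited RPKM, a minimum of 1 read, and assumed biological coefficients of variation of 0.2 and 0.4. Every gene of the family with at least 10 reads is described, with the 2 highest and 2 lowest of each pathway list, where a copy with no read in H3 was ranked highest, and the 5 nearest genes by level. Further copies of *HDR*, *DXR*, *PSY*, *SQS1* and *MVK* were added after their values were seen. The genes and lists were chosen with earlier results of these data known. *FPS2* and AT1G49530 were not analysed here.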

Additional observations from a re-analysis of the deposited data

Results flagged for a closer look

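The *LSU* copy Bra011709 had ratios past 2-fold in opposite directions, at 3.03 in M4 over H3 and 0.0315 in OvP over OvW. The OvP value rests on 1 read, and the difference between the pairs was not tested. Of 17341 genes tested in both pairs, 899 (5.18%) were past 2-fold in opposite directions.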

How the results depend on the processing

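No paired analysis was possible because each material had 1 library. No ratio that was called reversed under an alternative. With a minimum of 1 read, 3 genes of the family had a ratio of 0.5 or less in M4 over H3 and 10 were past 2-fold in either direction, against 0 and 6. The genes so added had at most 3 reads in M4 or H3, the floor, so nothing is read from their ratios. At an assumed coefficient of variation of 0.4, 1 gene was called higher in OvP than in OvW, against 2. As a share of reads in place of RPKM, *LSU* held 42.0% in M4, against 40.0%, and *SSU* 57.9% in H3, against 60.4%. Scaling M4 and H3 by total reads moved the median log2 ratio of all genes to 0.44, against 0.05 by TMM, and the share of genes past 2-fold that were higher in M4 to 72.5%, against 56.9%. Ratios of the family in M4 over H3 are relative to that shift, and the ratio of *SSU* was 0.902 by TMM and 1.18 by total reads. The 1.62 CPM that a count of 0 allows in OvP limits what can be said of low copies there.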
